A study of Saccharomyces cerevisiae with 18 samples.

Results

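The genes described here encode the subunits of RNA polymerases I, II and III of Saccharomyces cerevisiae, and 31 of them were listed by name. A subunit gene was included when the symbol or alias given for a probe on the array matched its name. Of the 31 genes, 29 had a probe, 1 each, among the 5365 named genes of the array. RPO21 and RPO31, which encode the largest subunits of Pol II and Pol III, had no probe matched to them and were not analysed here. The 29 genes fell into 7 found only in Pol I, 9 only in Pol III, 6 only in Pol II, 2 shared by Pol I and Pol III, and 5 shared by all 3 polymerases.

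Pol I transcribes the large ribosomal RNA precursor, Pol II transcribes messenger RNA, and Pol III transcribes transfer RNA, 5S ribosomal RNA and other small RNAs. The enzymes are built on a common plan: a catalytic pair of large subunits, an assembly pair, a set of small subunits that all of them share, a stalk, and subunits at the edge that differ between enzymes. Growing yeast spends much of its transcription on ribosomes, and the genes for Pol I and Pol III subunits belong to the wider group of ribosome biogenesis genes. The arrays measured the messenger RNA of the subunits, not the enzymes or their products.

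The study exposed yeast of strain S288C, grown in YPD at 25 °C to an optical density of 1, to a nitrophenol isomer for 2 h. The isomers carry the same nitro and hydroxyl groups and differ in where on the ring the nitro group sits. The o-nitrophenol group received 3 mM, the m-nitrophenol group 5 mM and the p-nitrophenol group 1.5 mM, with 3 independent biological samples each and 1 array per sample. PolyA RNA after treatment carried Cy5 and polyA RNA taken before treatment carried Cy3, on every array. With no swapped dyes and no culture kept for 2 h without nitrophenol among the samples, a dye effect and the passing of 2 h cannot be told apart from the treatment. Because each isomer had its own dose, isomer and dose cannot be told apart either.

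Values are log2 ratios, and the direction after treatment over before treatment is likely from the channel labels, though it is not stated with the values. A negative value thus means less of a gene's messenger RNA, relative to all the polyA RNA labelled, after treatment. Less RNA per cell and fewer cells holding it cannot be told apart in these bulk cultures. The arrays numbered 1 stood apart. Across genes they correlated with the other arrays of their isomer at r = 0.50 to 0.61, whereas arrays 2 and 3 correlated at 0.84 to 0.87. They also held fewer values: 20, 11 and 20 of the 29 subunit genes on array 1 of o-, m- and p-nitrophenol, against 27 to 29 on the others. For Pol I genes the gap was wider, with 2 genes measured on array 1 of o-nitrophenol and 0 on array 1 of m- and p-nitrophenol. Results are therefore given with and without these 3 arrays.

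A gene was called lower or higher when the mean of its arrays differed from 0 at an adjusted p under 0.05 in limma, fitted to 5096 genes with values on at least 2 arrays of each isomer. Of the subunit genes, 27 could be tested. RPC53 and RPC25, both of Pol III, had too few arrays. After o-nitrophenol 14 of the 27 were called lower, beside 18.7% of all genes tested. After m-nitrophenol 7 were called lower, beside 9.65% of all genes, and after p-nitrophenol 8, beside 11.9%. No subunit gene was called higher (0 were higher at an unadjusted p under 0.05 after any isomer, limma), while 13.8%, 8.26% and 13% of all genes were called higher after o-, m- and p-nitrophenol. The median log2 ratio of the 27 genes was -1.08, -0.47 and -0.62 after o-, m- and p-nitrophenol, and that of all genes was -0.17, 0.04 and 0.10. These medians were -0.82, -0.57 and -0.44 without the 3 arrays numbered 1, and those of all genes -0.15, 0.06 and 0.10. RPA190, RPA49, RPA43 and RPA12 of Pol I and the shared RPC40 were called lower after all 3 isomers.

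**Figure D1:**
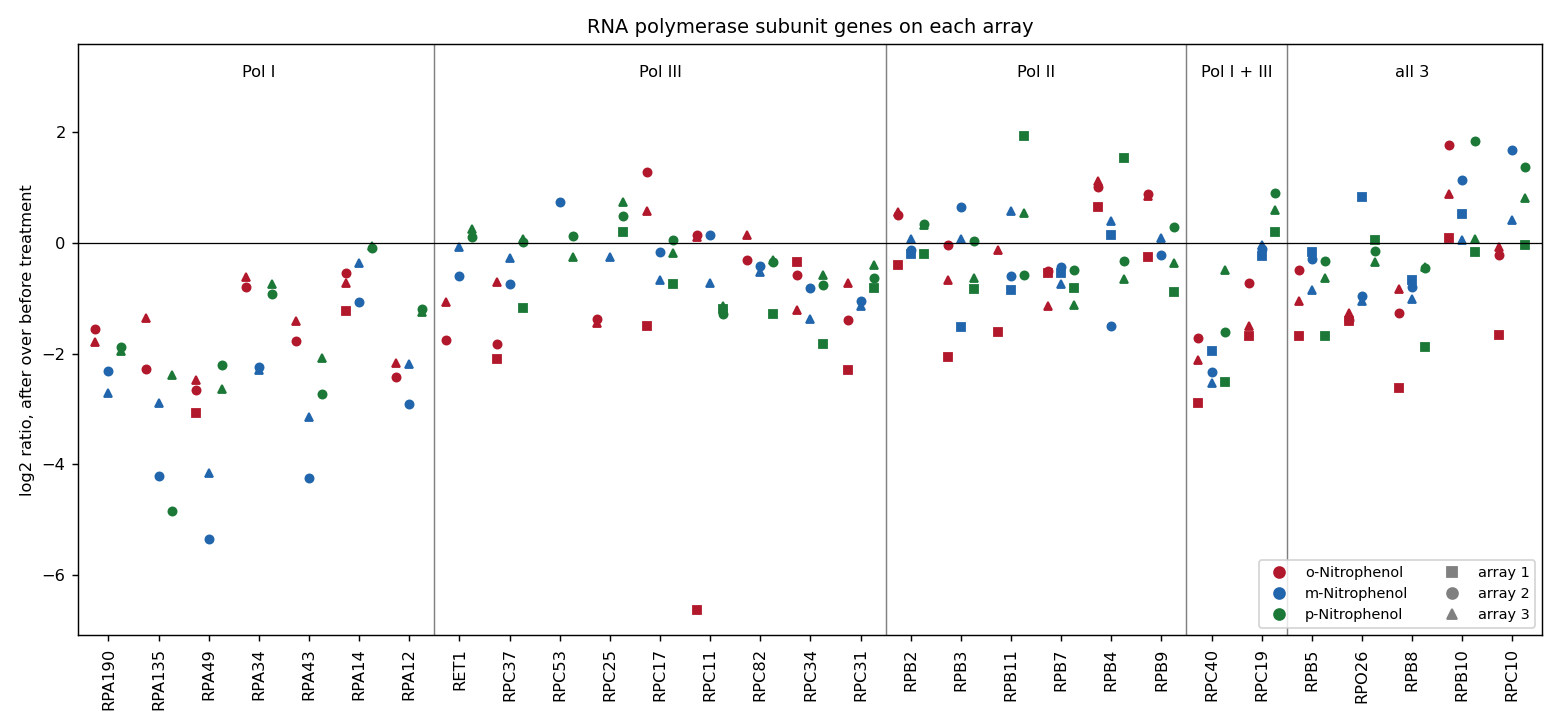
Log2 ratio of each measured subunit gene on each array, with colours for the isomers and marker shapes for the array number. The 44 Pol I values all lie below 0, from -5.35 to -0.05, and the Pol II values lie on both sides of 0, from -2.06 to 1.94.

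Of the genes particular to 1 enzyme, those of Pol I had the lowest medians. All 44 values measured over the 7 genes and 9 arrays were below 0, and 35 of them were below -1. After o-nitrophenol 5 of the 7 genes were called lower (18.7% of all genes), after m-nitrophenol 6 (9.65%), and after p-nitrophenol 5 (11.9%). The median over the 7 genes was -1.67, -2.56 and -1.92 after o-, m- and p-nitrophenol. Leaving out the 3 arrays numbered 1 did not move these medians. It could hardly do so, since those arrays held 2 Pol I genes after o-nitrophenol and 0 after m- and p-nitrophenol.

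RPA190 encodes the largest subunit, which with the second largest forms the active centre. Its log2 ratios were -1.55 and -1.79 on the 2 o-nitrophenol arrays with a value, -2.33 and -2.72 on 2 m-nitrophenol arrays, and -1.89 and -1.95 on 2 p-nitrophenol arrays. The 2 arrays of each isomer lay close together, with the m-nitrophenol pair lowest. In fold, RPA190 was 3.18 times lower after o-nitrophenol (adjusted p 0.00754, limma), 5.74 times lower after m-nitrophenol (0.00309) and 3.78 times lower after p-nitrophenol (0.00683).

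RPA135, the gene of the second largest subunit, varied more between arrays. Its values were -2.29 and -1.36 after o-nitrophenol, -4.23 and -2.90 after m-nitrophenol, and -4.84 and -2.39 after p-nitrophenol. Every array was below -1, and array 2 was the lower of each pair. The call for RPA135 was made after m-nitrophenol (mean -3.56 ± 0.62 (SE), adjusted p 0.00961, limma) and p-nitrophenol (-3.62 ± 0.62, 0.00768). After o-nitrophenol the mean of -1.82 ± 0.62 missed the threshold in limma (adjusted p 0.0590). It passed in limma without the 3 arrays numbered 1 (0.0222), which hold no value of RPA135 but take part in the shared fit.

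RPA49 and RPA34 encode a pair of subunits at the edge of Pol I that resembles the Pol II initiation factor TFIIF. RPA49 had values of -3.08, -2.66 and -2.49 on the o-nitrophenol arrays, -5.35 and -4.15 on 2 m-nitrophenol arrays, and -2.21 and -2.64 on 2 p-nitrophenol arrays. The m-nitrophenol values lay below all others of this gene, and the o- and p-nitrophenol values overlapped. RPA49 was 26.9 times lower after m-nitrophenol (adjusted p 0.000474, limma), the lowest mean of any subunit gene, 6.68 times lower after o-nitrophenol (0.000713) and 5.37 times lower after p-nitrophenol (0.00401). On the 7 arrays with a value it lay between percentile 0.131 and percentile 4.69 of all genes measured on the same array.

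RPA34, its partner, had values of -0.80 and -0.61 after o-nitrophenol, -2.25 and -2.30 after m-nitrophenol, and -0.93 and -0.74 after p-nitrophenol. The m-nitrophenol values lay below the others, and those of o- and p-nitrophenol overlapped. RPA34 was called after m-nitrophenol (mean -2.28 ± 0.31, adjusted p 0.00404, limma). After o-nitrophenol the mean was -0.71 ± 0.31 (0.119) and after p-nitrophenol -0.83 ± 0.31 (0.0894). Without the 3 arrays numbered 1, which hold no value of RPA34 but take part in the shared fit, these passed at 0.0250 and 0.0164.

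The stalk of Pol I, on which the initiation factor Rrn3 docks, is encoded by RPA43 and RPA14. RPA43 lies next to RPA190 in the genome, and the 2 genes are transcribed away from each other. RPA43 had values of -1.78 and -1.41 after o-nitrophenol, -4.25 and -3.15 after m-nitrophenol, and -2.74 and -2.08 after p-nitrophenol. The 3 isomers did not overlap, with m-nitrophenol lowest and o-nitrophenol highest. In limma RPA43 was 3.01, 13.0 and 5.31 times lower after o-, m- and p-nitrophenol (adjusted p 0.0203, 0.00175 and 0.00649).

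RPA14 encodes the small stalk subunit, which yeast can grow without. Its values were -1.23, -0.54 and -0.72 after o-nitrophenol, -1.06 and -0.37 after m-nitrophenol, and -0.08 and -0.05 after p-nitrophenol. The p-nitrophenol arrays were close to 0 and above all others. RPA14 was called after o-nitrophenol only, with a mean of -0.83 ± 0.27 (adjusted p 0.0479, limma), and no difference between isomers passed the test. That call was lost without o-nitrophenol array 1 (-0.63, 0.143) and under several other settings, with the array values centred (0.0888) among them.

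RPA12 encodes the zinc ribbon subunit that serves in RNA cleavage. Its values were -2.42 and -2.18 after o-nitrophenol, -2.92 and -2.20 after m-nitrophenol, and -1.20 and -1.25 after p-nitrophenol. The p-nitrophenol values lay above the rest. It was called after all 3 isomers in limma, with means of -2.30 ± 0.34 after o-nitrophenol (adjusted p 0.00282), -2.56 ± 0.34 after m-nitrophenol (0.00353) and -1.22 ± 0.34 after p-nitrophenol (0.0363). The p-nitrophenol call was lost with the high-power scans alone (0.0566) and with all 18 scans fitted with the array as a random block (0.0594).

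Most Pol I means rest on arrays 2 and 3, and several calls were lost when 1 of these was left out. RPA190 then had an adjusted p in limma of 0.0511 and 0.0819 after o-nitrophenol without array 2 and without array 3, 0.0568 after m-nitrophenol without array 3, and 0.0567 and 0.0619 after p-nitrophenol without array 2 and without array 3. RPA43 had 0.156 and 0.0956 after o-nitrophenol without array 2 and without array 3, and 0.0704 after p-nitrophenol without array 2. For RPA135 the values were 0.151 and 0.0546 after m-nitrophenol without array 2 and without array 3, and 0.0677 after p-nitrophenol without array 2. RPA12 reached 0.0785 after m-nitrophenol without array 2, and 0.175 and 0.191 after p-nitrophenol without array 2 and without array 3. RPA34 reached 0.0707 and 0.0632 after m-nitrophenol without array 2 and without array 3, and RPA49 reached 0.0502 after p-nitrophenol without array 3. All these means stayed below 0.

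Of the 7 Pol III genes tested, 3 were called lower after o-nitrophenol (18.7% of all genes), 0 after m-nitrophenol (2 at an unadjusted p under 0.05, and 9.65% of all genes called) and 1 after p-nitrophenol (11.9% of all genes). None was called in a test of a difference between isomers with all arrays kept. Their median was -1.42, -0.47 and -0.62 after o-, m- and p-nitrophenol. Without the 3 arrays numbered 1 the median was -0.89, -0.47 and -0.32, and 4, 2 and 1 genes were called lower, beside 29.3%, 18.3% and 19.5% of all genes. RPC17 was then called higher after o-nitrophenol, beside 22.2% of all genes.

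RET1 encodes the second largest subunit of Pol III. Its values were -1.76 and -1.07 after o-nitrophenol, -0.60 and -0.07 after m-nitrophenol, and 0.11 and 0.25 after p-nitrophenol. The isomers did not overlap. RET1 was 2.67 times lower after o-nitrophenol (adjusted p 0.0197, limma), and the means after m- and p-nitrophenol were -0.33 ± 0.35 (0.547) and 0.18 ± 0.35 (0.736). Without o-nitrophenol array 2 the o-nitrophenol mean was -1.07 (0.188), and without array 3 it was -1.76 (0.0627).

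RPC37 and RPC53 encode the Pol III pair that resembles TFIIF. RPC37 ranged from -2.10 to -0.70 on the o-nitrophenol arrays, from -0.75 to -0.27 on the m-nitrophenol arrays and from -1.18 to 0.07 on the p-nitrophenol arrays. It was called after o-nitrophenol (mean -1.54 ± 0.36, adjusted p 0.0111, limma), and missed the threshold without o-nitrophenol array 2 (-1.40, 0.0691). RPC53 was measured on 3 arrays only, with 0.74 after m-nitrophenol and 0.12 and -0.26 after p-nitrophenol.

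RPC82, RPC34 and RPC31 encode the trimer through which Pol III meets its initiation factor TFIIIB. RPC31 was below 0 on all 8 arrays with a value, from -2.30 to -0.72 after o-nitrophenol, from -1.14 to -1.04 after m-nitrophenol and from -0.81 to -0.41 after p-nitrophenol, and was called after o-nitrophenol (mean -1.47 ± 0.31, adjusted p 0.00742, limma). With the replicate number as a block it also passed after m-nitrophenol (-1.35, 0.0269). RPC34 was also below 0 on all 8 of its arrays, from -1.21 to -0.34 after o-nitrophenol, from -1.37 to -0.82 after m-nitrophenol and from -1.83 to -0.59 after p-nitrophenol. Its only call was after p-nitrophenol (mean -1.06 ± 0.32, adjusted p 0.0373, limma). That call was lost without p-nitrophenol array 1 (-0.68, 0.154), 2 (-1.21, 0.0910) or 3 (-1.30, 0.0678). It was also lost without m-nitrophenol array 2 (0.0566) or 3 (0.0569), o-nitrophenol array 2 (0.0531), or the 3 arrays numbered 1 (0.0639). RPC82 was below 0 on 6 of its 7 arrays and called after no isomer, with means of -0.09, -0.47 and -0.65 after o-, m- and p-nitrophenol.

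The Pol III stalk is encoded by RPC25 and RPC17. RPC25 had values of -1.38 and -1.45 on 2 o-nitrophenol arrays, -0.26 on 1 m-nitrophenol array, and 0.20, 0.49 and 0.73 on the p-nitrophenol arrays. All its o-nitrophenol values were thus below 0 and all its p-nitrophenol values above 0. With 1 m-nitrophenol array, however, RPC25 was left out of the reported fit. RPC17 had values of -1.50, 1.28 and 0.58 after o-nitrophenol, -0.17 and -0.67 after m-nitrophenol, and -0.74, 0.06 and -0.18 after p-nitrophenol. On o-nitrophenol array 1 it lay on the opposite side of 0 from arrays 2 and 3, and its mean there was 0.12 ± 0.46, against 0.93 (adjusted p 0.0176, limma) without the arrays numbered 1.

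RPC11 encodes the Pol III subunit that cleaves RNA and takes part in termination. Its o-nitrophenol values were -6.64, 0.15 and 0.11, and the value on array 1 is the lower limit of the deposited ratios. After m-nitrophenol it had 0.14 and -0.73, and after p-nitrophenol -1.20, -1.28 and -1.14. The p-nitrophenol arrays lay close together, yet the spread estimated with o-nitrophenol array 1 included gave an SE of 1.07 and an adjusted p of 0.436 in limma. Without o-nitrophenol array 1 the p-nitrophenol mean of -1.21 passed the test (adjusted p 0.00746).

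Of the 6 Pol II genes tested, 1 was called lower after o-nitrophenol, 0 after m-nitrophenol (1 at an unadjusted p under 0.05, limma) and 1 after p-nitrophenol. Of all genes, 18.7%, 9.65% and 11.9% were called lower, so these counts are near those shares. The called gene was RPB7 both times. Their median was -0.25, -0.28 and -0.08 after o-, m- and p-nitrophenol. It was 0.21, -0.04 and -0.17 without the 3 arrays numbered 1, so that its sign after o-nitrophenol turned.

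RPB2, the gene of the second largest subunit, had values of -0.40, 0.52 and 0.57 after o-nitrophenol, -0.20, -0.13 and 0.07 after m-nitrophenol, and -0.19, 0.35 and 0.32 after p-nitrophenol. Each isomer had values on both sides of 0, and no mean exceeded 0.23 in size. The 95% interval of the o-nitrophenol mean in limma ran from -0.36 to 0.82. That mean was 0.54 without the 3 arrays numbered 1, with an interval from 0.05 to 1.03 (adjusted p 0.0639).

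The Pol II stalk is encoded by RPB7 and RPB4, and it can leave the rest of the enzyme. RPB7 had values of -0.54, -0.51 and -1.13 after o-nitrophenol, -0.54, -0.44 and -0.74 after m-nitrophenol, and -0.82, -0.50 and -1.13 after p-nitrophenol. All 9 arrays were below 0 and the isomers overlapped. It was 1.66 times lower after o-nitrophenol (adjusted p 0.0445, limma) and 1.76 times lower after p-nitrophenol (0.0354). After m-nitrophenol the mean was -0.57 ± 0.25 (0.132). The o-nitrophenol call was lost without array 1, 2 or 3 of o-nitrophenol (adjusted p 0.0505, 0.0945 and 0.249), with centred arrays (0.106) and with the high-power scans alone (0.0616). The p-nitrophenol call was lost without array 1, 2 or 3 of p-nitrophenol (0.0760, 0.0755 and 0.196).

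RPB4 had values of 0.64, 1.02 and 1.13 after o-nitrophenol, 0.14, -1.51 and 0.41 after m-nitrophenol, and 1.53, -0.32 and -0.66 after p-nitrophenol. The o-nitrophenol arrays were all above 0, and its mean of 0.93 ± 0.45 was the highest of the tested subunit genes after that isomer without passing the test (adjusted p 0.138, limma). Without the 3 arrays numbered 1 the mean was 1.07 (0.0489).

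RPB9, the zinc ribbon subunit of Pol II, had values of -0.25, 0.89 and 0.84 after o-nitrophenol, -0.21 and 0.09 after m-nitrophenol, and -0.88, 0.28 and -0.36 after p-nitrophenol. RPB11, a partner in the assembly pair, had -1.61 and -0.13 after o-nitrophenol, -0.85, -0.60 and 0.57 after m-nitrophenol, and 1.94, -0.59 and 0.55 after p-nitrophenol. For both genes array 1 differed in sign from array 3 under at least 1 isomer, and neither was called. Without the 3 arrays numbered 1, RPB9 passed as higher after o-nitrophenol (mean 0.87, adjusted p 0.0178, limma). RPB3, the other partner of the assembly pair, ranged from -2.06 to 0.66 and was not called. With the replicate number as a block its o-nitrophenol mean of -0.92 passed (0.0234).

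RPC40 and RPC19 encode the assembly pair that Pol I and Pol III share, where Pol II has RPB3 and RPB11. RPC40 had values of -2.89, -1.72 and -2.11 after o-nitrophenol, -1.96, -2.33 and -2.54 after m-nitrophenol, and -2.52, -1.62 and -0.50 after p-nitrophenol. It had a value on all 9 arrays, each below 0, and the isomers overlapped. RPC40 was 4.72 times lower after o-nitrophenol (adjusted p 0.00221, limma), 4.85 times lower after m-nitrophenol (0.00353) and 2.91 times lower after p-nitrophenol (0.0155). The p-nitrophenol call was lost without p-nitrophenol array 1 (-1.06, 0.0776) and without array 2 (-1.51, 0.0742).

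RPC19 differed more from isomer to isomer. Its values were -1.69, -0.73 and -1.51 after o-nitrophenol, -0.24, -0.10 and -0.04 after m-nitrophenol, and 0.20, 0.90 and 0.60 after p-nitrophenol. The 3 isomers did not overlap, and all p-nitrophenol values were above 0. RPC19 was 2.48 times lower after o-nitrophenol (adjusted p 0.00490, limma), and the means after m- and p-nitrophenol were -0.13 ± 0.26 (0.776) and 0.56 ± 0.26 (0.141).

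Of the 5 subunits in all 3 polymerases, RPB5, RPO26 and RPB8 were called lower after o-nitrophenol, beside 18.7% of all genes. None was called lower after m-nitrophenol (0 at an unadjusted p under 0.05, limma) or p-nitrophenol (2 at an unadjusted p under 0.05), beside 9.65% and 11.9%. RPB5 had values of -1.69, -0.49 and -1.06 after o-nitrophenol, -0.17, -0.29 and -0.85 after m-nitrophenol, and -1.68, -0.33 and -0.63 after p-nitrophenol. RPB8 had -2.62, -1.27 and -0.83 after o-nitrophenol, -0.66, -0.79 and -1.01 after m-nitrophenol, and -1.88, -0.45 and -0.43 after p-nitrophenol. Both genes were below 0 on all 9 arrays, and array 1 was the lowest after o- and p-nitrophenol. In limma the o-nitrophenol means were -1.08 ± 0.33 for RPB5 (adjusted p 0.0305) and -1.57 ± 0.38 for RPB8 (0.0117). The RPB5 call was lost without o-nitrophenol array 1 (-0.77, 0.128), without array 3 (-1.09, 0.110) and with arrays centred (0.0584), and the RPB8 call without array 1 (-1.05, 0.0545). With the replicate number as a block RPB5 also passed after p-nitrophenol (-0.88, 0.0433).

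RPO26 had values of -1.41, -1.40 and -1.28 after o-nitrophenol, 0.84, -0.97 and -1.05 after m-nitrophenol, and 0.05, -0.15 and -0.34 after p-nitrophenol. The o-nitrophenol arrays were close together and below all others, and m-nitrophenol array 1 was opposite in sign to arrays 2 and 3. It was 2.57 times lower after o-nitrophenol (adjusted p 0.0145, limma), a call lost without array 2 (0.0686) or array 3 (0.0640) of o-nitrophenol. After m-nitrophenol the mean was -0.39 ± 0.35 (0.461), against -1.01 (0.00695) without the 3 arrays numbered 1.

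The smallest of the shared subunits, encoded by RPB10 and RPC10, were called after no isomer. RPB10 had values of 0.09, 1.77 and 0.88 after o-nitrophenol, 0.53, 1.15 and 0.05 after m-nitrophenol, and -0.17, 1.85 and 0.07 after p-nitrophenol. It was above 0 on 8 of 9 arrays, with a mean of 0.91 ± 0.43 after o-nitrophenol (adjusted p 0.126, limma), and array 2 was the highest of each isomer. RPC10 had -1.66, -0.23 and -0.08 after o-nitrophenol, 1.69 and 0.41 after m-nitrophenol, and -0.04, 1.38 and 0.81 after p-nitrophenol. Its o-nitrophenol values were all below 0 and its m-nitrophenol values all above 0, and neither mean passed the test (-0.65 ± 0.41, adjusted p 0.245, and 1.05 ± 0.50, 0.177). RPB10 passed as higher after o-nitrophenol with the replicate number as a block (0.0254). Without the 3 arrays numbered 1, RPB10 passed as higher after o-nitrophenol (0.0339), and RPC10 after m- (0.0304) and p-nitrophenol (0.0252).

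**Figure D2:**
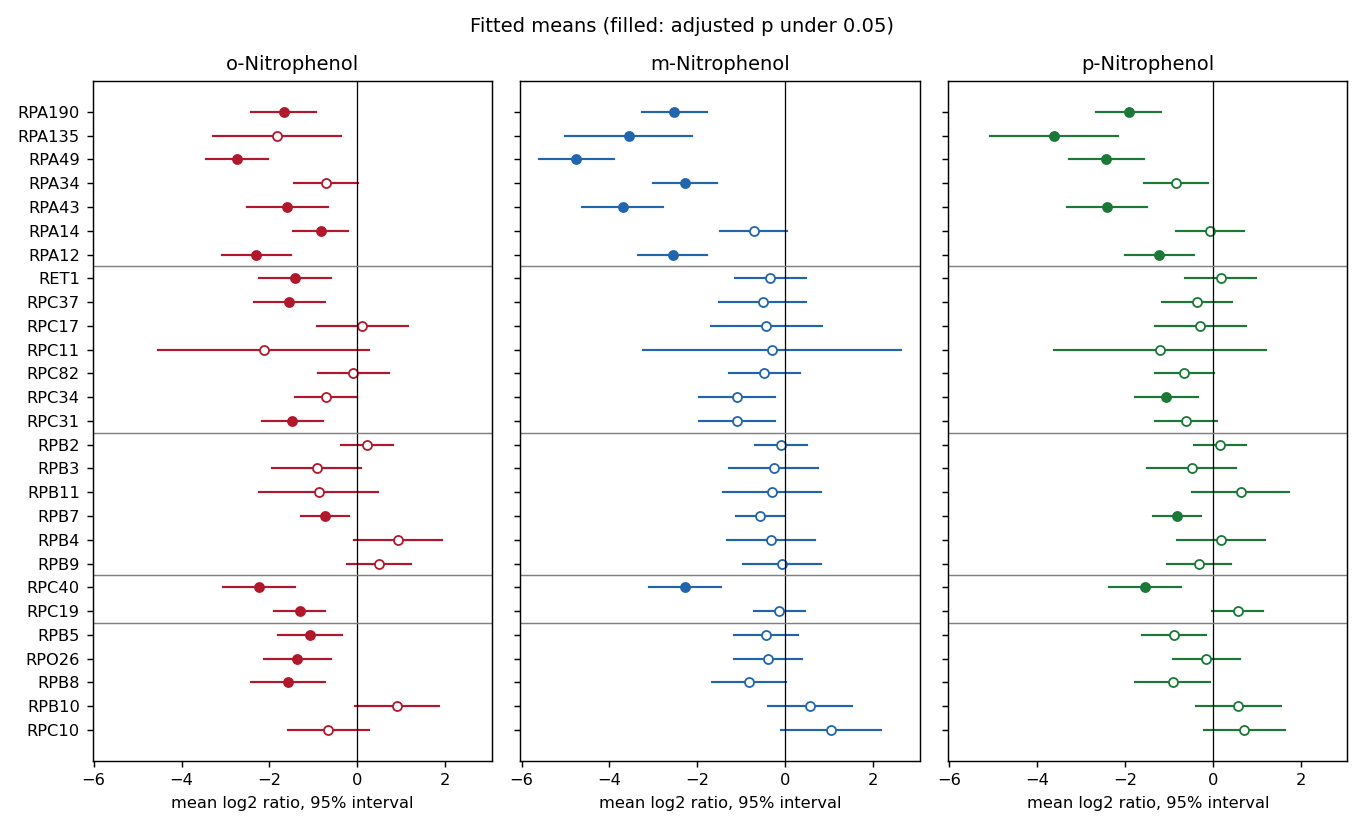
Fitted mean log2 ratio of the 27 tested subunit genes after each isomer, with genes ordered by polymerase and bars for the 95% interval. Filled points mark an adjusted p under 0.05 in limma. RPA49 after m-nitrophenol has the lowest mean at -4.75, and the mean of RPB10 is above 0 after every isomer.

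The polymerases were then set against each other within each array, as the median over the genes particular to one enzyme minus that of another. Such medians over chosen genes were described and not tested. The Pol I median was lower than the Pol II median on all 7 arrays where both had values. The difference was -1.68, -2.29 and -1.62 on the o-nitrophenol arrays, -2.59 and -2.80 on 2 m-nitrophenol arrays, and -1.75 and -1.45 on 2 p-nitrophenol arrays. The mean difference was -1.87 ± 0.37 (SD, n = 3), -2.70 ± 0.15 (n = 2) and -1.60 ± 0.21 (n = 2). An SD over 2 or 3 arrays is itself uncertain. On o-nitrophenol array 1 the Pol I median rests on 2 genes.

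Pol III stood in different places after different isomers. After o-nitrophenol its median lay below that of Pol II by -1.63, -1.49 and -0.93 on the 3 arrays (mean -1.35 ± 0.37, SD), and Pol I minus Pol III was -0.05, -0.80 and -0.70 (mean -0.52 ± 0.40). After m-nitrophenol Pol III minus Pol II was -0.18 and -0.69 (mean -0.43 ± 0.36, n = 2), and Pol I minus Pol III was -2.41 and -2.12 (mean -2.26 ± 0.21). After p-nitrophenol Pol III minus Pol II was -0.68, 0.16 and 0.24 (mean -0.09 ± 0.51, n = 3), and Pol I minus Pol III was -1.91 and -1.69 (mean -1.80 ± 0.16). By these means the Pol III median was nearer to that of Pol I after o-nitrophenol, and to that of Pol II after m- and p-nitrophenol. The genes behind the Pol III median differed between arrays. RPC53 had no o-nitrophenol value, and RPC25 (-1.38 and -1.45 after o-nitrophenol) had none on m-nitrophenol array 2. Without RPC25, the Pol III median on o-nitrophenol array 2 would be the RPC34 value of -0.58. That value is nearer to the Pol II median (0.52) than to the Pol I median (-1.78). Whether the differences between polymerases change between isomers was not tested. Without the arrays numbered 1 the mean of Pol III minus Pol II after p-nitrophenol was 0.20, opposite in sign.

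**Figure D3:**
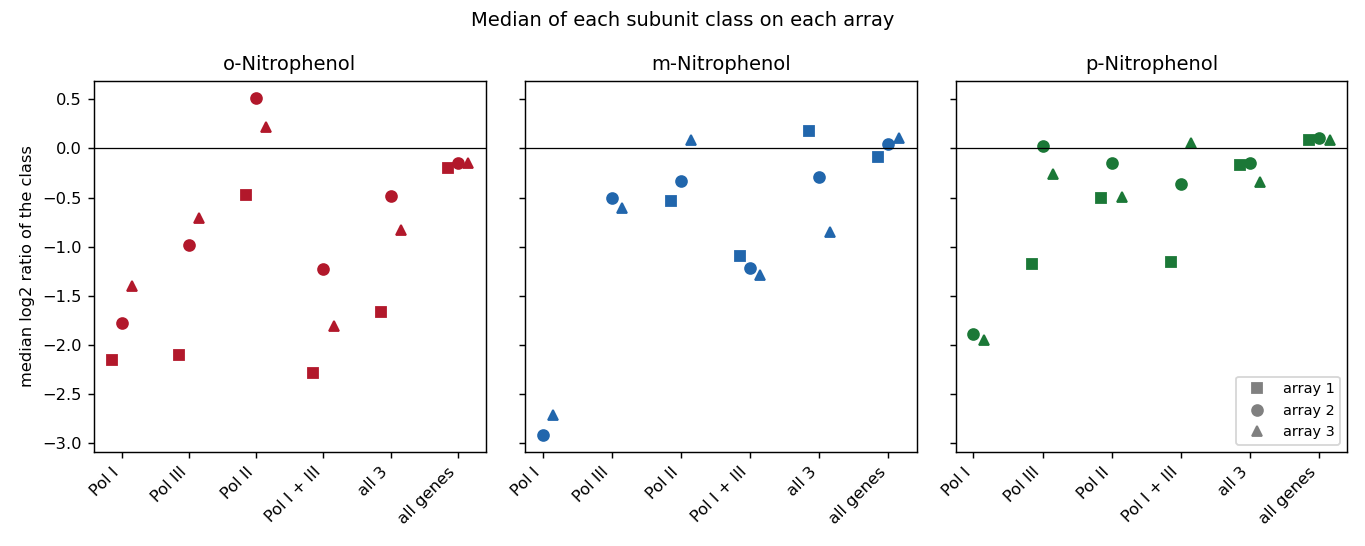
Median log2 ratio of the genes of Pol I, Pol III and Pol II, of the shared subunits and of all named genes on each array, by isomer. The Pol I medians lie between -2.92 and -1.40, and the medians of all named genes between -0.20 and 0.11.

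Subunits at the same place in the enzymes were also set side by side on each array. Among the second largest subunits, RPA135 was below RPB2 on all 6 arrays that measured both, with a median difference of -2.89, and below RET1 on 6 of 6 (median -2.74). RET1 was below RPB2 on 6 of 6 by less (median -0.35, from -2.28 to -0.08). The medians given here pool the isomers. On o-nitrophenol arrays 2 and 3, RET1 (-1.76 and -1.07) lay nearer to RPA135 (-2.29 and -1.36) than to RPB2 (0.52 and 0.57). Among the larger stalk subunits, RPA43 was below RPB7 on 6 of 6 arrays (median -1.75) and below RPC25 on 4 of 5 (median -2.81). On o-nitrophenol arrays 2 and 3, however, RPA43 (-1.78 and -1.41) was close to RPC25 (-1.38 and -1.45). The small stalk subunits showed no such order, since RPA14 was below RPB4 on 4 of 7 arrays and below RPC17 on 4 of 7. RPA12 was below its Pol II counterpart RPB9 on 6 of 6 arrays (median -2.50) and below RPC11 on 5 of 6 (median -1.88). On p-nitrophenol arrays 2 and 3, however, RPA12 (-1.20 and -1.25) was close to RPC11 (-1.28 and -1.14). In the assembly pairs, RPC40 was below RPB3 on 8 of 9 arrays (median -1.65), while RPC19 was below RPB11 on 4 of 8. These counts describe pairs on the same arrays and carry no test.

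**Figure D4:**
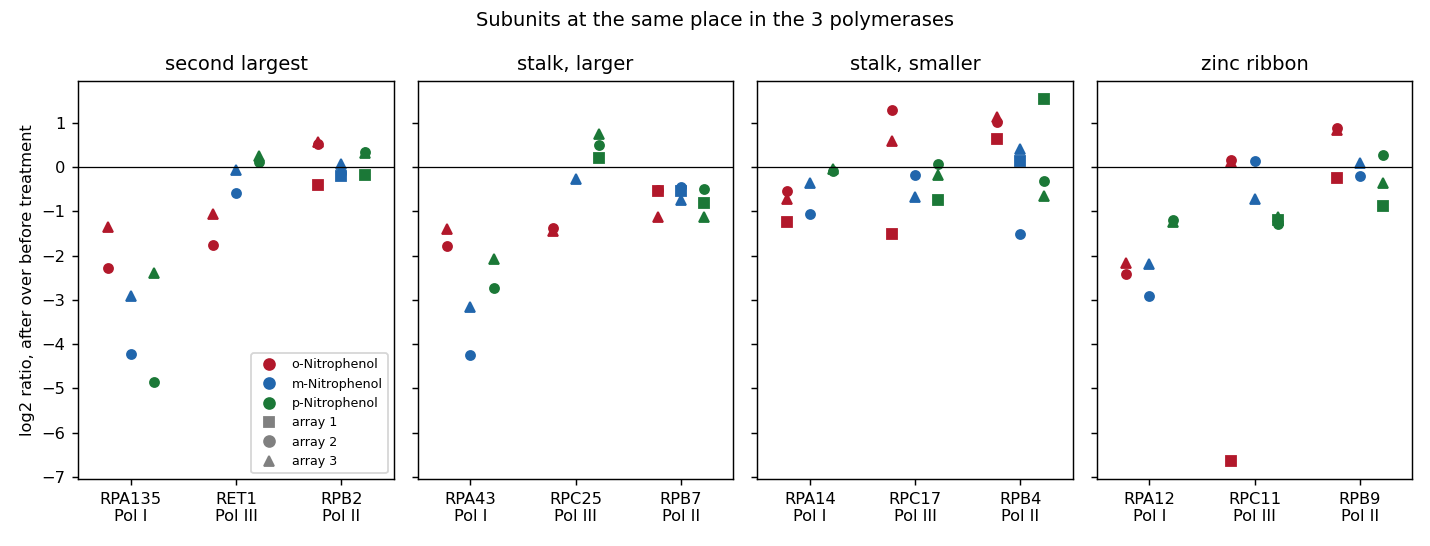
Log2 ratio per array of the second largest, stalk and zinc ribbon subunits of Pol I, Pol III and Pol II, with colours for the isomers and shapes for the array number. RPA135, RPA43 and RPA12 lie below -1 on every array with a value, and the small stalk subunits overlap between polymerases.

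Between isomers, few subunit genes differed at the adjusted threshold. RPC19 was lower after o-nitrophenol than after p-nitrophenol, with a difference of -1.87 ± 0.37 on the log2 scale (SE, adjusted p 0.0444, limma), and was the 1 subunit gene called in that contrast, beside 1.18% of all genes. The call was lost in 7 of the 9 fits that left out 1 array, with an adjusted p from 0.0538 to 0.168. These were the fits without o-nitrophenol array 2 (0.0561) or 3 (0.149), m-nitrophenol array 1 (0.0538), 2 (0.101) or 3 (0.0983), and p-nitrophenol array 2 (0.156) or 3 (0.168). It was also lost with the high-power scans alone (0.0565), with arrays centred (0.0585), with quantile normalization (0.0599) and with genes limited to those on all 9 arrays (0.0653), and RPC19 could not be tested with the low-power scans alone. Another 4 genes had an unadjusted p under 0.05, RET1 (-1.59 ± 0.49, adjusted p 0.149), RPC37 (-1.18 ± 0.51, 0.244), RPO26 (-1.21 ± 0.49, 0.215) and RPC10 (-1.37 ± 0.58, 0.241). All 5 were lower after o-nitrophenol than after p-nitrophenol.

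For o-nitrophenol minus m-nitrophenol, limma called 0 subunit genes, beside 0.726% of all genes, and 5 had an unadjusted p under 0.05. Of these, 3 were Pol I genes that were higher after o-nitrophenol, that is, less negative: RPA49 by 2.01 ± 0.49 (adjusted p 0.0882), RPA43 by 2.11 ± 0.56 (0.117) and RPA34 by 1.57 ± 0.44 (0.130). RPC19 (-1.18 ± 0.37, 0.141) and RPC10 (-1.70 ± 0.65, 0.216) were lower after o-nitrophenol. For m-nitrophenol minus p-nitrophenol, limma called 0 subunit genes, beside 0.0196% of all genes, and 3 Pol I genes had an unadjusted p under 0.05, RPA49 (-2.33 ± 0.53, adjusted p 0.605), RPA34 (-1.44 ± 0.44, 0.649) and RPA12 (-1.34 ± 0.48, 0.657). The contrasts share arrays, so each gene's values stand side by side and do not count as separate evidence.

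A missed threshold did not show that the isomers acted alike, because the intervals were wide. For RPA190 the 95% interval ran from -0.20 to 1.90 for o- minus m-nitrophenol, from -0.80 to 1.30 for o- minus p-nitrophenol and from -1.65 to 0.45 for m- minus p-nitrophenol. For RPC40 it ran from -1.13 to 1.21, from -1.86 to 0.47 and from -1.90 to 0.43 in the same order of contrasts. The narrower case of RPB7 ran from -0.93 to 0.61, from -0.68 to 0.85 and from -0.53 to 1.01.

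Leaving out the 3 arrays numbered 1 brought more differences past the threshold, in the subunit genes and in all genes. For o- minus m-nitrophenol 4 subunit genes were then called higher, RPA49 (2.18, adjusted p 0.0108), RPA34 (1.57, 0.0103), RPA43 (2.11, 0.0135) and RPC17 (1.35, 0.0354), beside 9.11% of all genes called higher. For o- minus p-nitrophenol RPC19 (-1.87, 0.0116), RET1 (-1.59, 0.0198) and RPO26 (-1.09, 0.0373) were called lower, beside 12.1% of all genes, and RPC11 (1.34, 0.0350) higher, beside 9.07%. For m- minus p-nitrophenol RPA49 (-2.33, 0.0226) and RPA34 (-1.44, 0.0341) were called lower, beside 2.86% of all genes. All are limma values.

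Genes of factors that work with the polymerases were counted in 4 lists, to be read beside the 18.7%, 9.65% and 11.9% of all genes called lower and the 13.8%, 8.26% and 13% called higher after o-, m- and p-nitrophenol. With 7 to 22 genes tested in a list, counts of 0 or 1 are near or below these shares. Of 9 Pol I factors, none was called lower after any isomer (at an unadjusted p under 0.05 in limma, 1, 0 and 1 were lower after o-, m- and p-nitrophenol), and 1 was called higher, RRN3, which brings Pol I to the promoter. RRN3 had values of 0.26, 0.11 and 0.81 after o-nitrophenol, 0.86 and 1.18 after m-nitrophenol, and 2.06, 1.98 and 1.57 after p-nitrophenol. All its arrays were above 0 and the p-nitrophenol values were the highest, and the call was after p-nitrophenol (mean 1.87 ± 0.26, adjusted p 0.00204, limma). The median of the 9 factors was -0.33, 0.05 and 0.07 after o-, m- and p-nitrophenol.

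Of 22 general factors of Pol II tested, out of 23 listed, 1 was called higher and 1 lower after o-nitrophenol, and 1 higher after m- and after p-nitrophenol. TFG1, the large subunit of TFIIF, rose after o-nitrophenol (mean 1.71 ± 0.31, adjusted p 0.00372, limma), and the elongation factor gene SPT5 fell (-0.82 ± 0.24, 0.0323). TOA1, a subunit of TFIIA, rose after m-nitrophenol (0.92 ± 0.26, 0.0373) and p-nitrophenol (1.01 ± 0.26, 0.0214). Of 10 Pol III factors, the TFIIIB gene BDP1 rose (1.16 ± 0.31, 0.0201) and the TFIIIC gene TFC8 fell (-0.83 ± 0.28, 0.0475) after o-nitrophenol. PZF1, which encodes TFIIIA, rose after p-nitrophenol (1.38 ± 0.30, 0.0134), and no Pol III factor was called after m-nitrophenol (0 at an unadjusted p under 0.05). Of 7 assembly and import factors, BUD27 fell after o-nitrophenol (-1.58 ± 0.45, 0.0323). IWR1, which serves the nuclear import of Pol II, rose after p-nitrophenol (0.86 ± 0.25, 0.0348). BUD27 had 2 o-nitrophenol arrays, which lay far apart (-2.43 and -0.74), and TFG1 also had 2 (1.98 and 1.44). Calls of these factor genes are given for the reported fit only. The medians of these 3 lists lay between -0.41 and 0.33 over the isomers.

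The Pol I values leaned on the high-power scans. Of 44 Pol I values, 21 came from both scans of an array and 23 from the high-power scan alone, while 45 of 52 Pol II values came from both. With the low-power scans alone, 1 Pol I gene could be tested, and the Pol I minus Pol II difference was -1.06, -2.38 and -0.81 after o-, m- and p-nitrophenol over the genes left. Where both scans gave a value for a subunit gene, they differed by a median of 0.189 and at most by 1.28 on the log2 scale, over 160 pairs. The part of scan power in the results was not tested further.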

How the data were processed

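The deposited values are log2 ratios. Per the labels, the authors applied LOWESS normalization to spots with a flag of 0. The base of the log was read from 13 values equal to the log2 of 0.01. The deposited table has 6912 probes, of which 5513 had 1 gene name, 0 several and 1399 none in the platform annotation. Symbols were updated through Entrez identifiers to RefSeq R64, where 5360 of the 5365 genes matched. RPC10 stands for the subunit also called Rpb12. No source used here states which rule left values missing or gives the spot intensity behind a ratio, so the number of arrays sets the precision.

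The 2 scans of each array, at high and low laser power, were averaged, since a scan is not a replicate, and probes of 1 gene were averaged (99 genes, none of them a subunit gene). A group-means model was fitted to the 9 arrays with limma 3.58.1 in R 4.3.3, for genes measured on 2 or more arrays of every isomer, and p-values were adjusted by the Benjamini-Hochberg method over all 5096 genes in each contrast. Each mean ± SE comes from this fit, with n between 2 and 3 arrays. The fit was checked on simulated data. The statement of independent biological samples is the submitters'.

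The subunit genes and the lists of other factors were chosen with earlier results of these data known. All 31 genes are named. Values per array are given for the largest, the second largest and the stalk subunits, for shared subunits, and for the 4 lowest and the 4 highest means of each isomer. RPA34 was given in full after its values were seen. Of each other list, up to 4 called genes with the largest means are named.

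The deviations of same-numbered arrays from their group means correlated at 0.267 to 0.366 between o- and p-nitrophenol, 0.117 to 0.255 between m- and p-nitrophenol, and 0.0608 to 0.215 between o- and m-nitrophenol, over 1757 genes. By the rule that every pair exceed 0.1, the numbers paired the arrays of p-nitrophenol with those of the other isomers, but not o- with m-nitrophenol. The labels do not say what a number shares. The fit reported has no block, and the blocked value is given where it changed a call. Alternatives covered the scans used, scaling between arrays, the filter on missing values, the choice of probe, the arrays left out and a replicate block. Promoter and protein sequences were not used here.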

Additional observations from a re-analysis of the deposited data

Results flagged for a closer look

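RPC19, the small partner in the assembly pair of Pol I and Pol III, differed between o- and p-nitrophenol by -1.875 on the log2 scale by the limma test of the difference (adjusted p 0.0444). As given above, this call was lost in 7 of the 9 fits that left out 1 array, and under several other settings. All 3 o-nitrophenol arrays lay below 0, between -1.69 and -0.73, and all 3 p-nitrophenol arrays above 0, between 0.20 and 0.90. No other subunit gene passed a test of a difference between isomers with all arrays kept, and groups of 3 arrays are too small for a search for single outlying arrays.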

How the results depend on the processing

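In the reported fit, 14, 7 and 8 of 27 subunit genes were called lower after o-, m- and p-nitrophenol. With the low-power scans alone the counts were 2, 2 and 4 of 14 testable genes, beside 16%, 8.42% and 12.7% of all genes. Limiting genes to those on all 9 arrays gave 5, 1 and 1 of 10, beside 16.4%, 11.4% and 12.5%. Fewer genes could be tested in both cases. The 2 of 14 after o-nitrophenol, and the 1 of 10 after m- and p-nitrophenol, were no larger than the shares of all genes. The other counts were larger shares. Leaving out 1 array gave 7 to 14, 4 to 8 and 1 to 11. The share of all genes in those fits ran from 9.05% to 21.8%, 1.96% to 12.6% and 5.65% to 15.5%. The 1 of 27 after p-nitrophenol came without p-nitrophenol array 2, where 5.65% of all genes were called lower. It was thus no larger than that share. Leaving out the 3 arrays numbered 1 gave 16, 12 and 9 lower, beside 29.3%, 18.3% and 19.5% of all genes, and 4, 1 and 2 higher, a smaller share than the 22.2%, 21.8% and 22.5% of all genes. Where 1 array was left for a gene, it was assumed to vary like the others. Of the differences between isomers, o- minus m-nitrophenol (0 called) had 0 in every fit without 1 array and 4 without the arrays numbered 1, and m- minus p-nitrophenol (0 called) had 0 and 2. For o- minus p-nitrophenol the 1 call became 0 with high-power scans, low-power scans (where RPC19 could not be tested), centred arrays, quantile normalization or genes on all 9 arrays, 0 to 1 without 1 array, and 4 without the arrays numbered 1. The cause was not tested.

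Pol I minus Pol II after o-, m- and p-nitrophenol was -1.06, -2.38 and -0.81 with low-power scans, and -2.375 after m-nitrophenol with quantile normalization. Leaving out 1 array gave -1.99 to -1.65, -2.80 to -2.59 and -1.75 to -1.45. Pol III minus Pol II was -0.50 after o-nitrophenol with low-power scans. Without 1 array it was -1.56 to -1.21, -0.69 to -0.18 and -0.26 to 0.20, the last, 0.20, without p-nitrophenol array 1 and also without the 3 arrays numbered 1. Pol I minus Pol III was -1.73 and -0.84 after m- and p-nitrophenol with low-power scans, and -1.89 after m-nitrophenol with quantile normalization. Without 1 array it was -0.75 to -0.38, -2.41 to -2.12 and -1.91 to -1.69.

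Of 2898 values of single genes under an alternative, 86 lost a call, 45 gained one and 1 reversed: RPC11, o- minus p-nitrophenol, was 1.341 without the 3 arrays numbered 1. In 107 others the sign changed with no call in either fit. The 45 include RPA135 after o-nitrophenol with the replicate block, where the value is not an isomer mean. Centring moved the median of all genes by 0.16 for o-nitrophenol, 0.22 for o- minus m- and 0.26 for o- minus p-nitrophenol. With quantile normalization these shifts were 0.13, 0.12 and 0.14.

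A paired fit had the replicate number as a block. It called 16, 8 and 9 subunit genes lower after o-, m- and p-nitrophenol, beside 23.3%, 12.8% and 15.1% of all genes. It called 1 higher after o-nitrophenol, beside 16.9%, and 0, 1 and 0 different for o- minus m-, o- minus p- and m- minus p-nitrophenol. RPA190, RPA135, RPA34, RPA43, RPA12 and RET1 had no value on any array numbered 1. For such genes the paired fit after 1 isomer gave a fitted value for array 2, not the isomer mean. The counts of lower and higher genes and their shares include such genes, RPA135 among the 16. Differences between isomers do not carry this limit. In the 3 contrasts between isomers the paired fit changed no call of a subunit gene. Calls it added after 1 isomer stand beside those genes, except for RPA135. In 16 of 18 comparisons an array correlated best with its own number, a hint from the data and not the design. With 2 arrays behind most Pol I means, the SE of a difference between isomers was 0.43 to 0.88 for those genes.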
